A study of Mus musculus with 6 samples.

Results

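The genes described here are 10 genes that mark regulatory T cells (Treg cells), Foxp3 and 9 others that are read as part of Treg identity: Gpr83, Nrp1, Itgae, Lrrc32, Capg, Entpd1, Nt5e, Penk and Swap70. They were taken by gene symbol from the platform annotation, and 20 of the 45101 probe sets on the array carried 1 of these symbols. These 20 probe sets covered 9 of the 10 genes. Lrrc32, whose product GARP anchors latent TGF-β on the Treg surface, had no probe set under its symbol and is not analysed here. Foxp3 and Penk were read by 1 probe set each, Gpr83, Itgae, Capg and Swap70 by 2 each, Entpd1 and Nt5e by 3 each and Nrp1 by 4.

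RNA was measured on 6 Affymetrix arrays, 3 of cells transduced with the retrovirus pMIT-E47-ER and 3 of cells transduced with the control pMIT-bHLH-ER. Each of 3 independent experiments gave 1 sample of each kind. Both groups started from CD4+CD25- T cells of the lymph nodes of C57BL/6 mice, aged 7, 8 and 9 weeks in experiments 1, 2 and 3, with 3, 3 and 4 mice pooled per sample. Both were stimulated on anti-CD3 (2 µg/ml) and anti-CD28 (1 µg/ml) with TGF-β1 (5 ng/ml) and IL-2 (200 U/ml) over 2 days, transduced on day 1 and sorted as CD4+Thy1.1+. Both then received 1 µM tamoxifen for 6 hours with IL-2 and the same antibodies, and TGF-β1 is not named for those hours. No group lacked tamoxifen or virus, the make-up of the control construct is not described, and the cells were made in culture from pooled mice, not taken as Treg cells from animals.

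Foxp3 is the forkhead transcription factor that makes and keeps Treg cells, and TGF-β with IL-2 can switch it on in CD4 T cells in culture. E47, a product of the Tcf3 gene, is an E protein: it binds DNA at E-box letters and is held back by Id proteins, and E proteins are known to bind at mouse Foxp3. Other members act at the cell surface or outside the cell, where Entpd1 (CD39) and Nt5e (CD73) together turn ATP into adenosine, which restrains T cells, and Itgae (CD103) ties cells to E-cadherin.

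The labels were checked on marker genes. All 9 T cell markers measured lay above the median of all probe sets, a log2 intensity of 5.12, and Cd4 was at 8.21, 8.00 and 8.04 in E47 replicates 1 to 3, against 8.21, 7.90 and 8.09 in control replicates 1 to 3. On the log2 scale Tcf3 itself differed by -0.01 (adjusted p = 0.961), while Id2 and Id3, targets and inhibitors of E proteins, were higher by 2.64 and 1.63 (adjusted p = 0.00145 and 0.00376). Levels below are log2 intensities of a gene's brightest probe set, and differences are E47 minus control within an experiment, tested over 18193 genes with limma with the experiment as a block (the paired fit). A gene is said to have changed when its Benjamini-Hochberg adjusted p over all genes was under 0.05. Detection above background was not tested, and levels of different genes are not comparable, since each probe set has its own brightness.

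Promoters are shown for Foxp3 and Gpr83, because these members moved together across the experiments. E-boxes are marked because E47 binds them, but neither gene passed the E47 test below. RefSeq (GRCm38.p6) held 300-base promoters, 250 bases before to 50 after a start site, for 7 of the 10 genes, 9 promoters in all. Itgae, Lrrc32 and Penk had none, so the promoter of Penk, the only member that changed with E47, could not be examined. Capitals mark every CANNTG, the general E-box, which reads the same on both strands.
Foxp3 promoter 1 (chrX:7579426-7579725, + strand): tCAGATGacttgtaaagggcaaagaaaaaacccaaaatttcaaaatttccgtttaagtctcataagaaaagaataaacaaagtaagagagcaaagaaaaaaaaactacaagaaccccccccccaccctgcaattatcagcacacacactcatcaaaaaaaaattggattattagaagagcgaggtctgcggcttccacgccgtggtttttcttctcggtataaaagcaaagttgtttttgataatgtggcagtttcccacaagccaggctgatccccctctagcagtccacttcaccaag
Foxp3 promoter 2 (chrX:7580233-7580532, + strand): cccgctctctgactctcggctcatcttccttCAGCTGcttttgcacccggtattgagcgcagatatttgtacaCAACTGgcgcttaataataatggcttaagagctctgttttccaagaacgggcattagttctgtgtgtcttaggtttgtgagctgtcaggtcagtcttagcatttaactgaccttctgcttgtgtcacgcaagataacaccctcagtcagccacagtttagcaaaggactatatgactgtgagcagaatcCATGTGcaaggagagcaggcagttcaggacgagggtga
Gpr83 promoter (chr9:14859960-14860259, + strand): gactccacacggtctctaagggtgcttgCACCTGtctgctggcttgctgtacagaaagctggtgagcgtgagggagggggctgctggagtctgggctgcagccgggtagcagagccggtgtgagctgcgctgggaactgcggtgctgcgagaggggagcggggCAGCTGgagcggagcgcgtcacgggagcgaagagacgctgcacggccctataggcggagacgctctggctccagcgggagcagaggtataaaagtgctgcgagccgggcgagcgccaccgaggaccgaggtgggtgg
The general E-box is common: 72.3% of all 32851 promoters of this length held it. Foxp3 promoter 1 held 1, starting 249 bases before the start site, and promoter 2 held 3, of which CAGCTG is a form that E47 is known to prefer. The Gpr83 promoter held 2. CAGCTG stood in 16.3% of all promoters and in 4 of these 9, those of Gpr83 and Capg, the first of Entpd1 and promoter 2 of Foxp3. CAGGTG, read on either strand, stood in 20.2% of all promoters and in 4 of these 9, those of Gpr83, Capg and Swap70 and the first of Entpd1. These are matches of letters, not measured binding sites, and whether E47 bound there was not measured.

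E47 cells were set against control cells to ask whether Treg identity genes differed between the constructs. Of the 9 genes, 1 changed, Penk, which fell to 0.549 times its control level, against a background of 1.14% of all genes changed in either direction and 0.363% lower in E47. Foxp3, Gpr83, Nrp1, Itgae, Capg, Entpd1, Nt5e and Swap70 did not pass the test. At the brightest probe set none of them had an unadjusted p under 0.05, which 12% of all genes had. In limma over probe sets, the dimmer Entpd1 sets (unadjusted p = 0.0094 and 0.0096) and the second Swap70 set (0.023) did, but none passed after adjustment. The median log2 difference over the 9 genes was -0.17, beside -0.03 over all genes. The E47 and control levels overlapped for all 9 genes, whereas 11.8% of all genes had groups that did not overlap. Capg, Foxp3, Gpr83 and Penk were lower in E47 in all 3 experiments, a pattern that 19.9% of all genes showed.

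**Figure D1:**
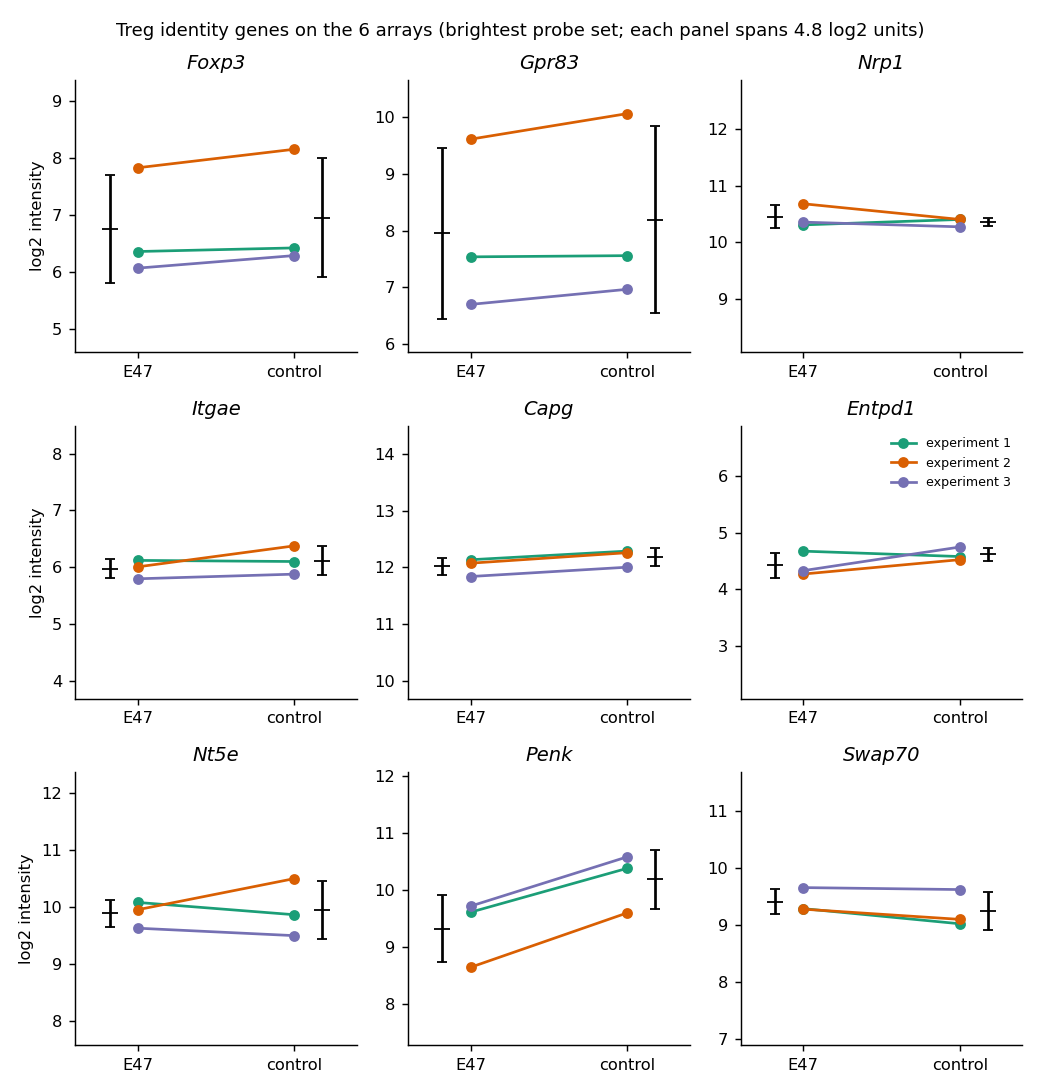
Log2 intensity of the brightest probe set of each measured gene, with E47 on the left and control on the right; coloured lines join the E47 and control arrays of an experiment, and black bars give each group's mean and SD (n = 3). In the Foxp3 and Gpr83 panels the experiment 2 line lies far above the others, and in the Penk panel all 3 lines are lower in E47.

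Foxp3 had log2 levels of 6.36, 7.83 and 6.07 in E47 replicates 1, 2 and 3 and of 6.42, 8.16 and 6.29 in the matching control samples. The groups overlapped, and the array pair of experiment 2 stood above the other 4 arrays in both groups. Foxp3 averaged 6.75 ± 0.95 in E47 and 6.96 ± 1.04 in control samples (SD, n = 3 each), so the group difference was far smaller than the spread within a group. Within experiments E47 minus control was -0.20 ± 0.13 (SD of the 3 paired differences). The fitted log2 difference was -0.20 with a 95% interval of -0.41 to 0.0057, which as a fold spans 0.751 to 1.00 (adjusted p = 0.427, and 0.966 without the block). Without the block the SE was 0.60, against 0.09 with it. A p above the threshold does not show that Foxp3 was equal in E47 and control cells. In bulk RNA, fewer cells with a transcript and less of it per cell cannot be told apart, and this holds for every gene below.

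Gpr83 encodes a G protein-coupled receptor that is enriched in Treg cells. Its levels were 7.54, 9.61 and 6.70 in E47 replicates 1 to 3, against 7.56, 10.06 and 6.97 in control replicates 1 to 3. Here too the experiment 2 samples were the highest of both groups. The fitted difference was -0.25 (SE 0.10, adjusted p = 0.421), which became -0.14 without experiment 2. The other probe set had 7.62, 9.77 and 6.83 in E47 against 7.66, 9.88 and 6.45 in control, a difference of 0.08 (SE 0.12). The probe sets thus ordered the experiments alike. For E47 minus control, both were below 0 in experiments 1 and 2 and differed in sign only in experiment 3 (-0.27 and 0.38).

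Penk encodes proenkephalin, the precursor of the enkephalin opioid peptides, and is a transcript enriched in Treg cells. Its log2 levels were 9.61, 8.64 and 9.71 in E47 replicates 1 to 3, against 10.38, 9.59 and 10.58 in control replicates 1 to 3. Each E47 sample was lower than its own control, by 0.77, 0.96 and 0.87, but the groups overlapped because control replicate 2 was lower than E47 replicates 1 and 3. The paired differences averaged -0.87 ± 0.09 (SD, n = 3), and the fit gave a fold of 0.549 with a 95% interval of 0.479 to 0.629 (adjusted p = 0.00806, with an SE of 0.08 for the log2 difference). The adjusted p was 0.715 without the block and 0.264 with the experiment as a random block. It was 0.00827, 0.0672 and 0.0904 when experiment 1, 2 or 3 was left out, with differences of -0.91, -0.82 and -0.86. Penk also passed when every probe set was tested on its own (adjusted p = 0.0312), and it was the only 1 of the 20 probe sets that did, beside 0.271% of all probe sets.

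**Figure D2:**
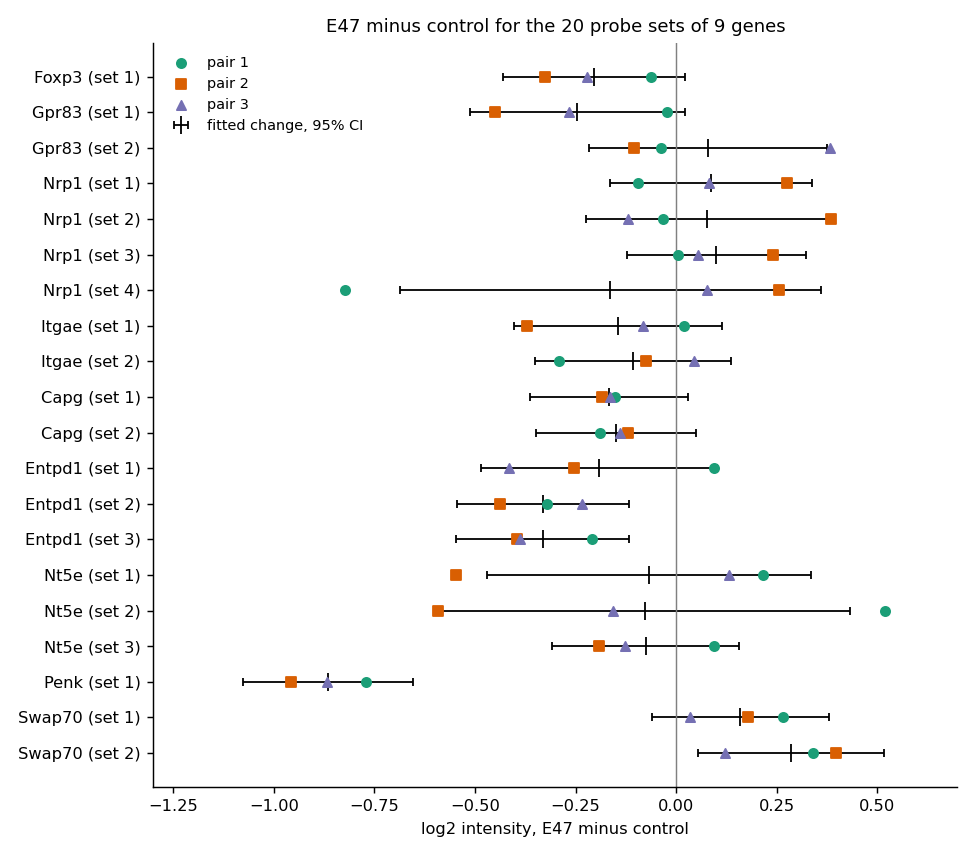
Log2 intensity of E47 minus control for each of the 20 probe sets, numbered within a gene from bright to dim; coloured symbols are the 3 experiments and black bars the fitted difference with its 95% interval. Penk lies near -0.87 in all 3 experiments, while the symbols of the Nt5e and dimmest Nrp1 sets fall on both sides of 0.

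Of 11 measured genes of enkephalin processing, breakdown and opioid reception, 0 passed in limma (4 at an unadjusted p under 0.05). Over all genes 1.14% changed and 12% had an unadjusted p under 0.05 in limma. The nearest were Furin, a protease that cuts precursor proteins (-0.26, adjusted p = 0.290), and Anpep, an aminopeptidase that breaks down enkephalins (-0.34, adjusted p = 0.308). Anpep was dimmer than the median probe set on all 6 arrays (3.72 to 4.29). Marker lists of other cell types were examined beside the Penk result. None of the 35 markers in the 8 lists of other cell types passed the E47 test in limma. An unadjusted p under 0.05 was found for 4 of the 35, beside 12% of all genes. The summed macrophage markers (7 genes, 6 of them dimmer than the median probe set) spanned 194.03 to 215.17 in E47 and 215.54 to 227.45 in control arrays. Among these 7, 5 were lower and 1 higher in E47 in all 3 experiments, beside 19.9% and 14.4% of all genes. Cd68 and Itgam had positive differences (0.10 and 0.11). The 5 dendritic cell markers spanned 151.73 to 160.52 in E47 and 160.58 to 195.41 in control arrays. The summed CD8 markers spanned 189 to 327 in E47 and 140 to 209 in control arrays, and NK cell markers 207 to 318 in E47 and 169 to 251 in control arrays. Their part in the Penk difference was not tested.

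The members of the adenosine pathway gave no call. Entpd1, which encodes the ATP-splitting enzyme CD39, had levels of 4.67, 4.27 and 4.33 in E47 replicates 1 to 3, against 4.58, 4.52 and 4.75 in control replicates 1 to 3 (difference -0.19, SE 0.11, adjusted p = 0.554). That difference was -0.33 without experiment 1 and -0.08 without experiment 3. All 3 Entpd1 probe sets were dimmer than the median probe set. The dimmer 2 were lower in E47 in every experiment with no overlap between groups, each by a log2 difference of 0.33 (adjusted p = 0.380 and 0.383). Among all genes, read at the brightest probe set, 19.9% were lower in all 3 experiments and 11.8% had no overlap. Whether these 2 Entpd1 sets were detected at all is not known. Nt5e, which encodes CD73 and makes adenosine from AMP, had 10.08, 9.95 and 9.63 in E47 replicates 1 to 3, against 9.86, 10.50 and 9.49 in control replicates 1 to 3. E47 was higher in experiments 1 and 3, by 0.22 and 0.13, and lower in experiment 2, by 0.55, so the fitted -0.07 (SE 0.16, adjusted p = 0.890) averages opposite differences and turned to 0.17 without experiment 2. A second Nt5e probe set showed the same lower value in experiment 2 (-0.59) but 0.52 and -0.16 in experiments 1 and 3. Of 15 other genes of adenosine handling that were measured, 0 passed the limma test, beside 1.14% of all genes. An unadjusted p under 0.05 was found for 2 of the 15, beside 12% of all genes. The nearest were Ampd3, an AMP deaminase (0.20, adjusted p = 0.387), and Dpp4, which binds adenosine deaminase in humans (0.27, adjusted p = 0.400).

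The surface proteins Nrp1 and Itgae did not pass either. Nrp1 encodes neuropilin-1, a coreceptor for semaphorins and VEGF that marks thymus-derived Treg cells in mice. Its levels were 10.31, 10.68 and 10.36 in E47 replicates 1 to 3, against 10.40, 10.40 and 10.27 in control replicates 1 to 3 (difference 0.09, SE 0.10, adjusted p = 0.763). The difference was -0.01 without experiment 2, and the dimmest of its 4 probe sets had -0.82, 0.26 and 0.08 in experiments 1 to 3. Of 16 genes for its ligands and partners, 2 rose and 0 fell: Plxnd1, a plexin receptor of semaphorins (1.66, SE 0.16, adjusted p = 0.00863, and 0.0169 without the block), and Vegfa, the growth factor that binds neuropilins (0.94, SE 0.13, adjusted p = 0.0377, and 0.147 without the block). The Plxnd1 call was lost without experiment 3 (adjusted p = 0.0973), and the Vegfa call without experiment 2 (0.194) or 3 (0.161). Sema4d and Plxna3 came nearest among the rest (0.40 and -0.22, adjusted p = 0.148 and 0.378). In limma 4 of the 16 had an unadjusted p under 0.05, beside 12% of all genes, and 1.14% of all genes changed.

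Itgae encodes the αE integrin chain that pairs with the Itgb7 chain to bind E-cadherin, and TGF-β is known to induce it in T cells. It had 6.12, 6.01 and 5.80 in E47 replicates 1 to 3, against 6.10, 6.38 and 5.88 in control replicates 1 to 3 (difference -0.14, SE 0.10, adjusted p = 0.613). The difference was -0.23 without experiment 1 and -0.03 without experiment 2. Its groups overlapped, and its second probe set gave -0.11 (SE 0.10). Cdh1, the E-cadherin gene itself, was higher in E47 by 3.53 (adjusted p = 3.04e-04, SE 0.14, and 0.513 without the block) from control levels of 2.94, 5.67 and 3.22, of which those of replicates 1 and 3 lay below the median probe set, while Itgb7 differed by 0.0073 (SE 0.08). Of the 6 measured genes of CD103 partners and T cell homing, Cdh1 was the only 1 that changed, beside 1.14% of all genes. In limma 2 of the 6 had an unadjusted p under 0.05, beside 12% of all genes. Ccr7 and Itgb1 came nearest among the rest (-0.22 and -0.15, adjusted p = 0.393 and 0.515).

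The cytoskeletal members were Capg and Swap70. Capg, an actin filament capping protein of the gelsolin family, had 12.13, 12.07 and 11.84 in E47 replicates 1 to 3, against 12.29, 12.26 and 12.00 in control replicates 1 to 3. Its 3 paired differences were the most alike among the 9 genes, -0.17 ± 0.02 (SD, n = 3). The second probe set gave -0.15 with no overlap between groups, as 11.8% of all genes showed at their brightest probe set. Neither Capg probe set passed (adjusted p = 0.458 over genes and 0.639 for the second probe set). Swap70, a Rac-binding signalling protein best known from B cells and mast cells, had 9.29, 9.28 and 9.66 in E47 replicates 1 to 3, against 9.02, 9.10 and 9.62 in control replicates 1 to 3. It was the only member higher in E47 in all 3 experiments (0.16, SE 0.08, adjusted p = 0.515; 14.4% of all genes showed this pattern), and its second probe set was higher in all of them too (0.29, SE 0.09, adjusted p = 0.475). Of 12 relatives of Swap70 and Capg, 0 passed in limma (2 at an unadjusted p under 0.05), beside 1.14% and 12% of all genes. Vil1 (0.23, adjusted p = 0.345) and Gsn (0.33, adjusted p = 0.368), both of the gelsolin family, came nearest. Vil1 was dimmer than the median probe set on all 6 arrays (3.92 to 4.43).

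Other Treg genes were read beside the members. Of 26 further core Treg genes that were measured, 1 rose, Il10, and 2 fell, Cd83 and Icos, beside 1.14% of all genes changed. In limma 12 of the 26 had an unadjusted p under 0.05, beside 12% of all genes. Il10, an anti-inflammatory cytokine gene, rose 5.21-fold (adjusted p = 2.79e-04, and 0.0757 without the block) and passed whichever experiment was left out. Cd83, an activation marker, fell by 0.76 (adjusted p = 0.0176, and 0.818 without the block) and Icos, a costimulatory receptor, by 0.51 (adjusted p = 0.0418, and 0.652 without the block). The Cd83 call was lost without experiment 2 (adjusted p = 0.123) or 3 (0.134), and that of Icos without any 1 of the 3 (0.0659, 0.255 and 0.235). Tnfrsf4 (OX40) and Cd81 came nearest among the rest (-0.44 and -0.34, adjusted p = 0.0752 and 0.155). The list had a median of -0.21, and 13 of its 26 genes were lower in E47 in all 3 experiments, beside 19.9% of all genes. Il2ra, Ctla4, Ikzf2 and Tnfrsf18, which encode CD25, a checkpoint receptor, Helios and GITR, did not pass.

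**Figure D3:**
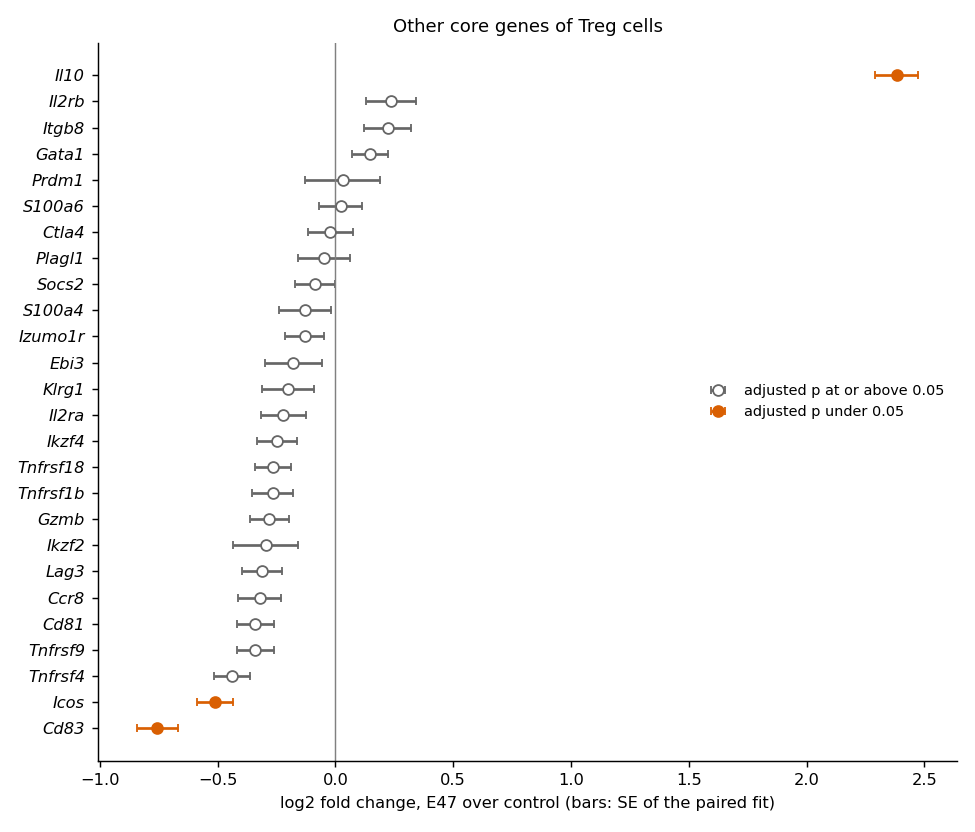
Log2 fold change of E47 over control for 26 further core Treg genes, with bars for the SE of the paired fit; filled points passed the adjusted p of 0.05 and open points did not. Il10 lies at 2.38 on the right, Cd83 and Icos lie lowest, and 20 of the 26 points are below 0.

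Genes that act on Foxp3 were followed in the same fit. Of 37 inducers and partners of Foxp3, 1 rose, Smad3, a messenger of TGF-β receptors (1.69, SE 0.14, adjusted p = 0.00514, 0.151 without the block and 0.0658 without experiment 3). Foxo1, which supports Foxp3 transcription, and Irf4 came nearest among the rest (0.63 and -0.45, adjusted p = 0.0753 and 0.163). Of 23 genes of the TGF-β response and release, 0 passed in limma (7 at an unadjusted p under 0.05), with Tgfb1 at -0.48 and its receptor Tgfbr2 at 0.52 (adjusted p = 0.0552 and 0.0586). Of 15 genes reported to be held low in Foxp3-expressing cells, 1 rose, Il4 (1.46, SE 0.11, adjusted p = 0.00346, and 0.05001 without experiment 3), and Il7r and Igfbp4 were nearest among the rest (0.61 and 0.36, adjusted p = 0.125 and 0.135). The medians of these 3 lists were -0.05, -0.01 and -0.02, beside -0.03 over all genes. An unadjusted p under 0.05 in limma was found for 13 of the 37 inducers and partners and 8 of the 15 genes held low. Over all genes 12% had such a p and 1.14% changed.

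Levels across the 3 experiments were compared next, with the group as the other term in the fit. Of the 9 genes, 3 differed between experiments, Foxp3, Gpr83 and Penk, beside 3.2% of all genes. Foxp3 and Gpr83 were highest in experiment 2 and Penk was lowest there. Experiment number, mouse age and, for experiment 3, the number of mice pooled go together and cannot be told apart.

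**Figure D4:**
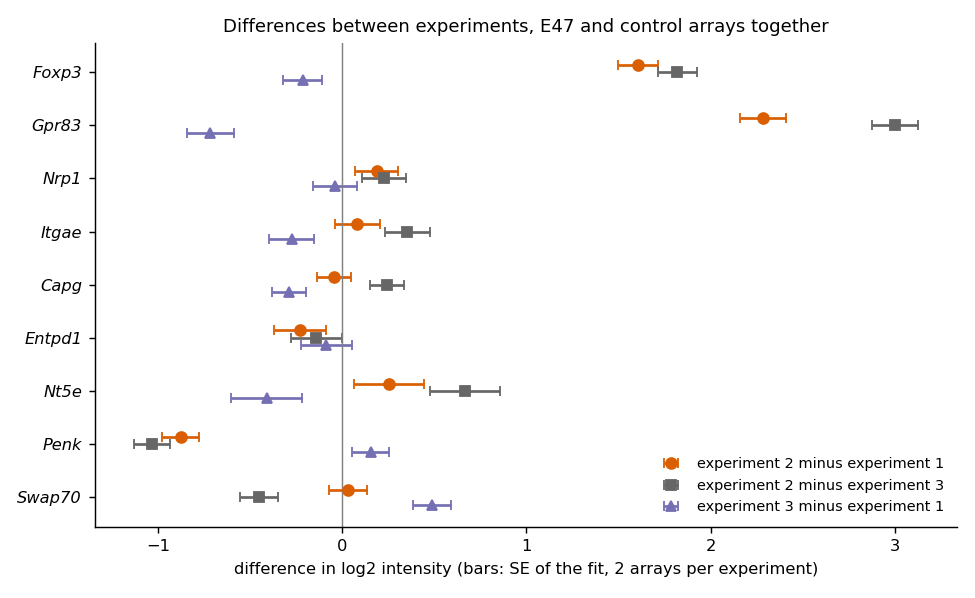
Differences in log2 intensity between experiments for each measured gene, from the fit over E47 and control arrays together, with bars for the SE (2 arrays per experiment). Foxp3 and Gpr83 lie between 1.61 and 3.00 for experiment 2 against the others, Penk lies near -1, and the remaining genes lie between -0.45 and 0.66.

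Foxp3 was 3.04-fold higher in experiment 2 than in experiment 1 (log2 difference 1.61, SE 0.11, adjusted p = 0.00289) and 3.53-fold higher than in experiment 3 (adjusted p = 0.00144). Experiment 3 minus experiment 1 was -0.21 (SE 0.11, adjusted p = 0.655). The excess of experiment 2 over the mean of the other experiments was 1.62 in E47 arrays and 1.80 in control arrays. The order of Foxp3 levels was thus experiment 2, then 1, then 3, and the difference between experiments 1 and 3 did not pass the test.

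Gpr83 was 4.87-fold higher in experiment 2 than in experiment 1 (2.29, SE 0.13, adjusted p = 0.00246) and 8.00-fold higher than in experiment 3 (adjusted p = 6.98e-04). The excess of experiment 2 over the mean of the others was 2.49 in E47 and 2.80 in control arrays. Experiment 3 minus experiment 1 was -0.72, which did not pass (adjusted p = 0.279). Its second probe set spanned 3.19 between experiments, close to the 3.00 of the brighter set. A level in experiment 2 more than 1.5 above both other experiments on the log2 scale, as Foxp3 and Gpr83 had, was found in 30 genes, or 0.165% of all. The cut of 1.5 lay just under the 1.61 of Foxp3 over experiment 1, so that both genes passed it is not a result.

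Penk went the other way, at 0.544 times its experiment 1 level and 0.489 times its experiment 3 level in experiment 2 (adjusted p = 0.0127 and 0.00538). Experiment 2 minus the mean of the others was -1.02 in E47 and -0.89 in control arrays, beside -0.87 between the constructs. Swap70 was highest in experiment 3 and spanned 0.49, and Nt5e was highest in experiment 2 and spanned 0.66, but neither passed (adjusted p = 0.0914 and 0.232). Nrp1, Itgae, Capg and Entpd1 spanned 0.23 to 0.35 between experiments and did not pass (adjusted p from 0.249 to 0.619). Without experiment 2, 0 of the 9 genes and 0 of all 18193 genes differed between experiments 1 and 3 in limma, where 4 members and 1209 genes had an unadjusted p under 0.05. Without experiment 1 or 3, the calls of Foxp3, Gpr83 and Penk were kept.

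Other Treg genes did not follow 1 direction in experiment 2. Of the 26 further core Treg genes, 8 differed between experiments, 4 of them highest in experiment 2 and 4 lowest there, beside 1.65% and 1.4% of all genes. The 4 that were high were S100a6, a calcium-binding protein, Gata1, Izumo1r, the folate receptor 4 gene of Treg cells, and Gzmb, granzyme B. Their excess over experiment 1 was 1.37, 1.25, 0.84 and 0.39. Gata1 averaged 4.69 in experiment 1 and 4.49 in experiment 3, both below the median probe set. The 4 that were low were Ebi3, a subunit of IL-35 and IL-27, Cd83, Il10 and Plagl1, a zinc finger protein, by -2.02, -1.17, -0.96 and -0.73 against experiment 1. Il2ra, Ctla4, Ikzf2 and Tnfrsf18 did not pass (adjusted p from 0.126 to 0.899). Of the listed partners of Nrp1 and Itgae, Itgb7, Cdh1 and Sema4d were highest in experiment 2, by 0.70, 2.88 and 0.51 over experiment 1 (adjusted p of the F test 0.00995, 0.00262 and 0.0498). Ccr7 differed too (adjusted p = 0.0214), with 11.41 in experiment 3 and 11.30 in experiment 2 above 10.58 in experiment 1. Without experiment 3 the calls of Gzmb (adjusted p = 0.148), Plagl1 (0.0725), Itgb7 (0.0565), Sema4d (0.125) and Ccr7 (0.0519) were lost, and that of Ccr7 was also lost without experiment 1 (0.662).

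Single markers of some other cells also differed between experiments. They were 1 of 2 for CD8 T cells (Cd8a), 1 of 5 for NK cells (Eomes, which activated T cells also express), 1 of 5 for B cells (Ms4a1) and 1 of 4 for endothelium (Pecam1). Each was highest in experiment 2, beside 1.65% of all genes, while 3.2% of all genes differed between experiments. In limma 0 of 9 T cell, 7 macrophage, 5 dendritic cell, 5 stroma and 2 erythroid markers did. The median of experiment 2 minus experiment 1 was 0.53 for the CD8 list and 0.23 for the B cell list. It was 0.03 for the NK cell list and -0.02 for endothelium. The summed CD8 markers were 209 to 327 in experiment 2 and 140 to 192 in experiments 1 and 3, and the summed B cell markers 185 to 203 in experiment 2 and 151 to 173 in experiments 1 and 3. The summed NK cell markers spanned 251 to 318 in experiment 2 and 169 to 263 in the others, endothelial markers 110 to 131 in experiment 2 and 92.7 to 111 in the others, and T cell markers 25696 to 28551 in experiment 2 and 23573 to 28607 in the others. The calls of Cd8a, Ms4a1 and Pecam1 were lost without experiment 3 (adjusted p = 0.103, 0.0612 and 0.0820) and that of Eomes without experiment 1 (0.0771). Their part in the levels of Foxp3, Gpr83 and Penk was not tested.

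The genes whose profiles lay nearest to Foxp3 were found by the root mean square difference between log2 profiles over the 6 arrays, each centred on its own mean. The nearest of 18192 genes were Klra7 (0.16), Klrd1 (0.17), S100a6 (0.17), Dbp (0.18) and Rcn1 (0.18). Klra7 and Klrd1 encode lectin-like receptors of NK cells and some T cells, Dbp is a transcription factor of the circadian clock and Rcn1 a calcium-binding protein of the secretory pathway. Each of the 5 was highest in experiment 2 in both groups, and none passed the E47 test. These traits follow from the choice, since the genes were picked for closeness to Foxp3 on the same arrays. Gpr83 ranked 138th by this measure (0.49), with a larger step in experiment 2 than Foxp3. Nt5e ranked 404th (0.61), and Penk, with the opposite step, 18098th (1.31).

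**Figure D5:**
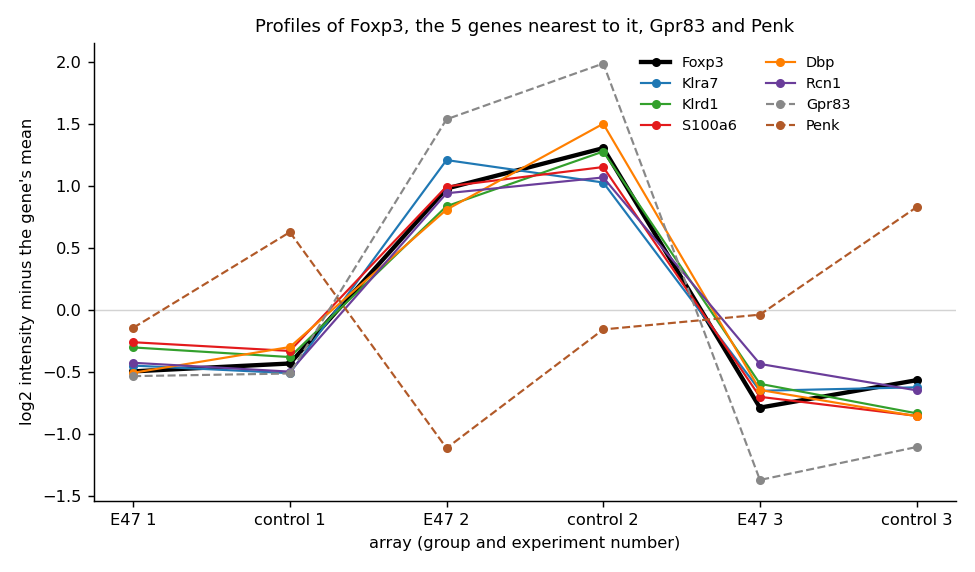
Log2 intensity minus the gene's own mean on each array, in pairs of E47 and control by experiment, for Foxp3 (thick black line), the 5 genes nearest to it, Gpr83 and Penk (dashed lines). The 5 lines, picked for closeness to Foxp3 on these arrays, share its peak in experiment 2. Gpr83 has a higher peak there, and Penk is lower in E47 than in control in each experiment.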

How the data were processed

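RNA of 6 samples was measured on Affymetrix mouse arrays. The authors deposited linear intensities, 1 for each probe set on each array, made with RMA (version not stated) per the submitters' processing notes. Values ran from 4.26 to 26755.28, array medians from 34.3 to 35.4, and log2 was taken without a pseudocount. Symbols came from the platform annotation. The 64 control probe sets were left out, and 18193 genes were each represented by the probe set with the highest mean.

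Groups and replicate numbers came from sample titles. limma 3.58.1 (R 4.3.3; lmFit and eBayes, two-sided) was fitted over all genes with group and replicate number as terms, an F test of the replicate terms compared experiments, and adjusted p used Benjamini-Hochberg. The pairing comes from the design text, which gives 3 independent experiments with 1 sample of each construct; deviations from group means correlated at 0.28, 0.67 and 0.43 across genes within pairs 1, 2 and 3, against -0.52 to 0.25 between samples of different numbers, of which E47 replicate 1 with control replicate 3 was the highest. Of 229 listed symbols 209 were measured. Named genes were all members, per list up to 4 genes that passed and 2 that did not, by lowest p, and the 5 genes nearest to Foxp3; others were named after their values were seen. Members, lists and tests were chosen with earlier results of these data known. On simulated data of 18193 genes for E47 against control, changes of 1 and 2 on the log2 scale were recovered in 75% and 99% of cases, with 2 false calls. The simulated noise was Gaussian and independent between genes and arrays, and few genes were shifted by experiment. In the data 582 genes differed between experiments, so these rates check the code and need not hold for the data. The number of arrays, 3 per group, limits precision. Alternatives tried were the block, leaving out each pair, normalization, the choice of probe set, a filter on dim genes, a pseudocount of 16 and eBayes settings.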

Additional observations from a re-analysis of the deposited data

How the results depend on the processing

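For single members, 183 values under the alternatives kept their direction and their side of the threshold, 2 turned their sign, 7 lost a call and 4 gained one. The number of members changed by E47 was 1, and 0 with no replicate block or a random replicate block; leaving out a replicate gave 0 to 1. The number of genes changed was 208, and 45 with no replicate block, 92 with a random replicate block, 122 over all probe sets and 538 with trend and robust eBayes; leaving out a replicate gave 41 to 288. For levels across experiments, 582 genes differed, and 272 over all probe sets, 961 among genes above the median level, 1000 with log2(value + 16) and 1810 with trend and robust eBayes; leaving out a replicate gave 0 to 1032. The number of members that differed between experiments was 3, and 5 with trend and robust eBayes, where Swap70 and Capg joined (adjusted p = 0.00798 and 0.0136). Swap70 also passed among genes above the median level and with log2(value + 16) (adjusted p = 0.0447 and 0.0409); leaving out a replicate gave 0 to 3 members. When a replicate was left out, the log2 fold change of Nrp1 ran from -0.0063 to 0.18 and that of Nt5e from -0.21 to 0.17, both with a turned sign without replicate 2 and neither called. Penk passed in 8 of 12 alternatives (log2 fold change -0.91 to -0.82). Foxp3 passed the E47 test in none of 12 (-0.27 to -0.14, adjusted p from 0.241 to 0.966) and differed between experiments in 9 of 10. The causes of these shifts were not tested. How far signal stood above background is not known, which limits what dim probe sets can show. Among them are those of Entpd1, Anpep and Vil1, of Cdh1 in control replicates 1 and 3, and of Gata1 in experiments 1 and 3.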
